A study of Mus musculus with 12 samples.

Results

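B220-positive, GFP-positive splenic B cells of BIC mice, a lymphoma model, were compared with B220-positive, YFP-positive splenic B cells of normal control YC mice. The comparison held 6 of the 12 libraries of the series, 3 BIC and 3 YC, chosen by the group name in their titles. The 6 pBIC libraries, of the BIC genotype with floxed p53 added, stayed out of the fit. YC mice had the genotype YFPstopF/+Cg1Cre/+: a yellow reporter behind a floxed stop cassette, and the Cre recombinase under the Cg1 (IgG1 constant region) locus. BIC mice had the genotype Blimp1F/FIKK2castopF/stopFCg1Cre/+: floxed alleles of Blimp1, an IKK2ca allele behind a floxed stop cassette on both chromosomes, and the same Cre. Both groups therefore carry Cg1-Cre, and the reporter marks cells in which Cre has acted at some time, so YC is a mixture of normal Cre-experienced B cells and not a naive population. Each library is from 1 mouse according to the design text, and age and sex are not given in the labels.

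Diffuse large B-cell lymphoma of the activated B-cell type (ABC-DLBCL) is a tumour of mature B cells with active NF-kB and a block before the plasma cell stage. IKK2, encoded by Ikbkb, is the kinase that releases canonical NF-kB from its inhibitors, and Blimp1, encoded by Prdm1, is the repressor that ends the B cell programme when a plasma cell forms. Mature B cells pass between naive, germinal centre, memory, marginal zone, B1 and plasma states, each with its own regulators, surface receptors and rate of division. The gene groups below follow those states and then the signalling, division and metabolism of the cells.

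The sorted cells of both groups carried the defining B cell markers at high levels in every library. Cd79a, a signalling chain of the B cell receptor, was at 942, 1130.4 and 1160.1 CPM (counts per 1000000 counts of the library) in YC 1, 2 and 3. It was at 1494, 1358 and 1272 CPM in BIC 1, 2 and 3, with a log2 fold change (BIC against YC, ± SE) of 0.35 ± 0.14 and an adjusted p = 0.096. Ms4a1, which encodes CD20, was at 1041, 1565 and 1619.5 CPM in YC and 2125, 2057 and 2322 CPM in BIC (log2 fold change 0.62 ± 0.19, adjusted p = 0.044). Pax5, the factor that holds B cell identity, was at 1257, 1433 and 1462 CPM in YC and 810.1, 756 and 1092 CPM in BIC (log2 fold change -0.64 ± 0.17, adjusted p = 0.029). Cd79a, Ms4a1 and Pax5 lay in separate ranges in the 2 groups, but the call of Ms4a1 ended on leaving out each of the 6 libraries (adjusted p = 0.067 to 0.096 without YC 1, YC 2, YC 3, BIC 1, BIC 2 or BIC 3). That of Pax5 ended on leaving out 4 of them (adjusted p = 0.083 to 0.097 without YC 2, YC 3, BIC 1 or BIC 2). The label of B cells thus was met by these markers in all 6 libraries.

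Total counts ran from 33127283 in YC 3 to 46412424 in YC 1. Of 50686 genes in the files, 15923 had enough counts to be tested, and 4602 (28.9%) passed an adjusted p under 0.05, 2327 (14.6%) higher and 2275 (14.3%) lower in BIC. The changes were mostly moderate. Of the genes that rose, 881 did so by less than 1 on the log2 scale, 663 by 1 to 2, 606 by 2 to 4 and 177 by 4 or more; of those that fell, 848, 662, 469 and 296 did so. All 3 BIC libraries lay above all 3 YC libraries in 24.3% of the genes tested and below them in 23.9%. The groups did not overlap in 4583 of the 4602 called genes, and 2063 kept the call whichever of the 6 libraries was left out. The total was 2356 without YC 2 and 2511 without YC 3. When the pBIC libraries were added to the fit, with 1 estimate of the spread for all 12 libraries, 1576 genes passed, 693 higher and 883 lower. The counts of every gene list below depend on these same libraries and on that choice, and are given with their exceptions.

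All 3 YC libraries carried Y-linked transcripts, with Ddx3y at 232, 179.9 and 172 CPM. All 3 BIC libraries carried Xist, at 1724, 1809 and 1831 CPM. Genotype and these sex-linked transcripts therefore cannot be told apart in this comparison. Among autosomal genes 14.6% were higher and 14.4% lower in BIC, and among X-linked genes 14.0% and 11.6%. Within the groups, YC 1 and BIC 3 stood apart most. Of 9938 genes that averaged 5 CPM or more, immunoglobulin genes left out, 43 were at least 4-fold above both other YC libraries in YC 1, and 45 were at least 4-fold above and 92 at least 4-fold below both other BIC libraries in BIC 3. The neutrophil and erythroid markers were among the former. In bulk RNA, fewer cells of a type and less RNA per cell cannot be told apart, and this holds for every level below.

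**Figure D1:**
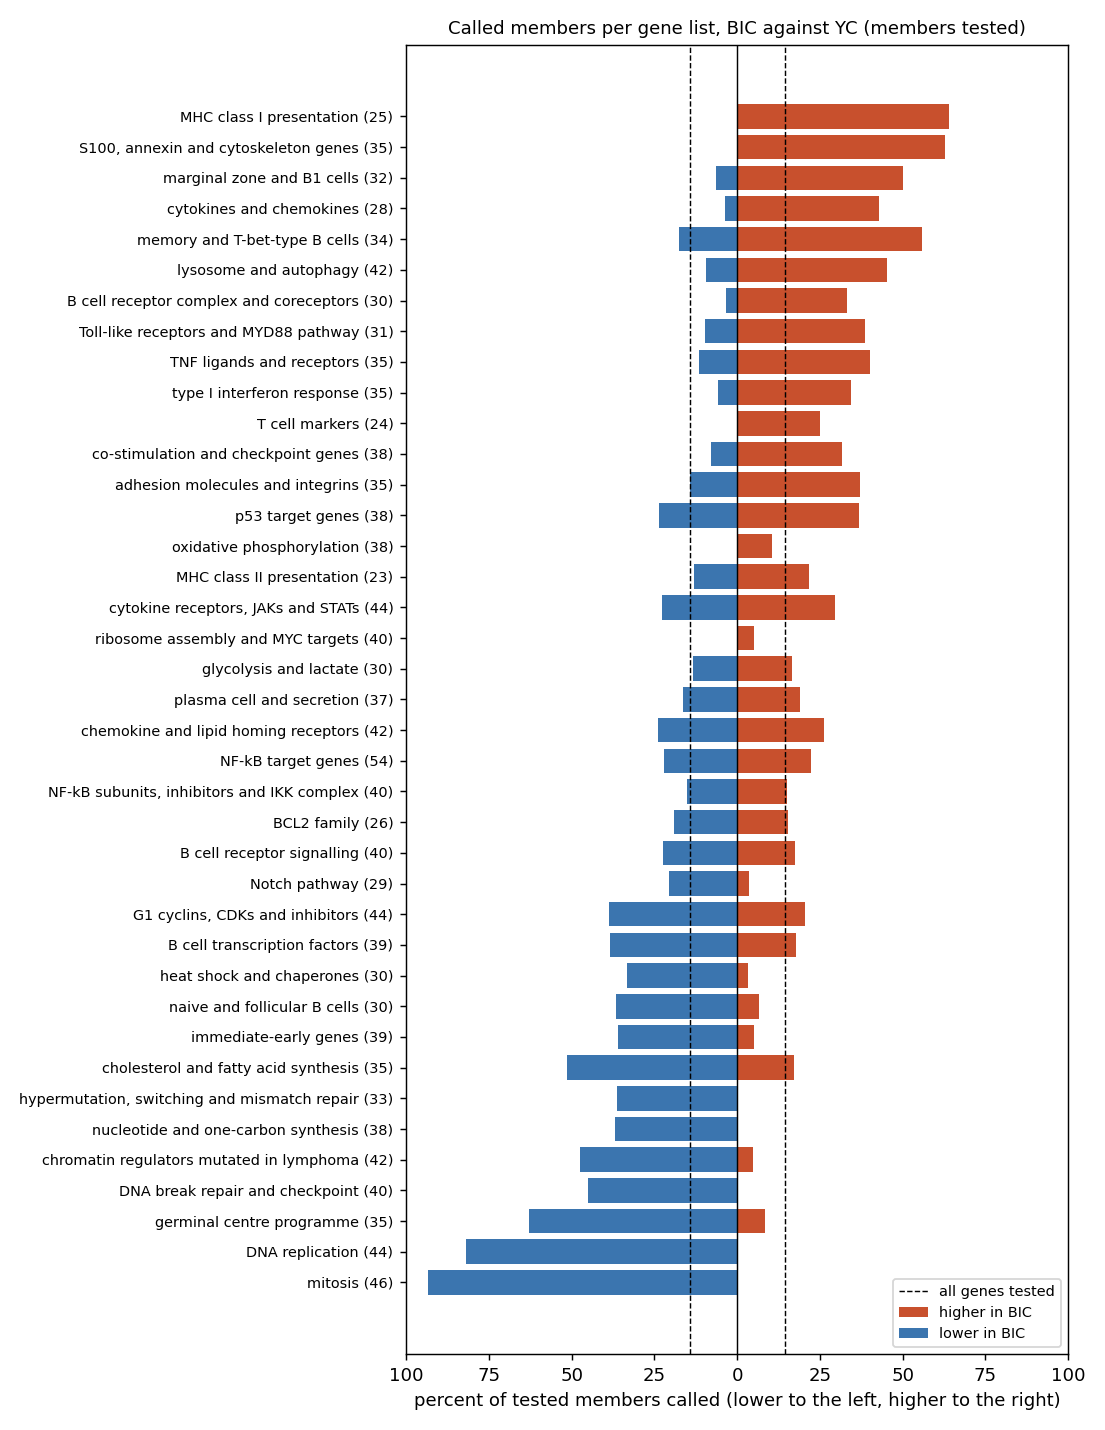
Percent of the tested members of each gene list (number tested in brackets) that were called higher in BIC (red, to the right) or lower (blue, to the left); dashed lines mark 14.6% and 14.3%, the shares over all genes tested. Mitosis and DNA replication genes reach furthest to the left, and MHC class I and S100, annexin and cytoskeleton genes furthest to the right.

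The engineered genes came first. Ikbkb was at 252, 245 and 214 CPM in YC and 391, 429 and 539 CPM in BIC (log2 fold change 0.93 ± 0.16, adjusted p = 0.0055), and all 3 BIC libraries lay above the 3 YC libraries. The counts do not separate the transgene from the endogenous gene. Prdm1 was at 18.4, 18.1 and 19.6 CPM in YC and 42.2, 31.9 and 5.33 CPM in BIC (log2 fold change 0.50 ± 0.66, adjusted p = 0.604; 0.99 with adjusted p = 0.0056 without BIC 3): BIC 1 and BIC 2 were above the YC range and BIC 3 below it. Exon counts include reads outside the floxed part of Prdm1, so its level is no check of the deletion.

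Transcription factors that set B cell states moved in both directions: of 39 tested, 7 rose and 15 fell (17.9% and 38.5%, against 14.6% and 14.3% of all genes tested), with a median log2 fold change of -0.45 against 0.03 over all genes tested. Zbtb32 (chr7:30589681-30598909, GRCm38), a zinc finger repressor of memory and B1 cell responses, was at 32.3, 30.8 and 24.5 CPM in YC and 293, 261 and 388 CPM in BIC (log2 fold change 3.43 ± 0.20, adjusted p = 0.00014). Bhlhe41, a regulator of B1a cells, was at 82.9, 46.5 and 34.4 CPM in YC and 301, 253 and 234 CPM in BIC (log2 fold change 2.26 ± 0.32, adjusted p = 0.0037). Spib, an ETS factor of mature B cells, was at 646, 737 and 727 CPM in YC and 1518, 1127 and 1098 CPM in BIC (log2 fold change 0.83 ± 0.16, adjusted p = 0.00999). Every BIC library was above every YC library for each of these factors, as for 24.3% of all genes tested. Bcl6 (chr16:23965052-23988852), the master repressor of the germinal centre, was at 154, 281 and 268 CPM in YC and 7.47, 9.42 and 6.14 CPM in BIC (log2 fold change -4.93 ± 0.30, adjusted p = 0.00019). Bach2, which holds back plasma cell differentiation, was at 292, 447 and 459 CPM in YC and 32, 45.3 and 35.8 CPM in BIC (log2 fold change -3.41 ± 0.23, adjusted p = 0.00025). Mef2c, a factor downstream of B cell receptor signals, was at 669, 664 and 670.3 CPM in YC and 137, 188 and 177 CPM in BIC (log2 fold change -2.0 ± 0.15, adjusted p = 0.00035). Foxo1, which is needed for the dark zone of the germinal centre, fell as well (log2 fold change -1.21 ± 0.16, adjusted p = 0.0025), as did Fli1 (log2 fold change -1.11 ± 0.13, adjusted p = 0.0016) and Runx1 (log2 fold change -0.93 ± 0.12, adjusted p = 0.00197). Irf4, which drives both early germinal centre and plasma cell fates, was at 992, 652 and 505 CPM in YC and 269, 343 and 182 CPM in BIC (log2 fold change -1.44 ± 0.32, adjusted p = 0.016). Its call ended when BIC 1 was left out (adjusted p = 0.0505 without BIC 1). Spi1, encoding PU.1, was at 79.5, 86.2 and 86 CPM in YC and 71.2, 69 and 89.4 CPM in BIC (adjusted p = 0.49). For this list the higher count was 2 in the 12-library fit, 4 without YC 2 and 3 without YC 3. The number lower was 5 in the 12-library fit and 9 without YC 3.

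The germinal centre programme was the B cell state whose genes were lower in BIC most often. Of 35 tested members 22 fell and 3 rose (62.9% and 8.57%, against 14.3% and 14.6% of all genes tested, median -2.10). Germinal centres are the sites where B cells mutate their antibody genes and are selected. Basp1, a membrane-bound signalling protein, was at 132, 127 and 172 CPM in YC and 1.83, 1.7 and 1.23 CPM in BIC (log2 fold change -6.49 ± 0.23, adjusted p = 3.3e-05). Fas, the death receptor, was at 62.5, 86.5 and 98.2 CPM in YC and 2.33, 2.97 and 1.51 CPM in BIC (log2 fold change -5.18 ± 0.31, adjusted p = 0.00016). S1pr2, the receptor that holds B cells in the germinal centre, was at 98.5, 202 and 221 CPM in YC and 4.43, 5.5 and 2.74 CPM in BIC (log2 fold change -5.36 ± 0.43, adjusted p = 0.00059). Mybl1, a factor of dividing germinal centre cells, was at 114, 246 and 250.4 CPM in YC and 6.6, 2.28 and 2.37 CPM in BIC (log2 fold change -5.75 ± 0.61, -6.44 without BIC 1, adjusted p = 0.0018). Fas, S1pr2 and Mybl1 were lowest in YC 1 among the YC libraries, and every YC library was far above BIC. The members that rose were Tbc1d9 (log2 fold change 4.14 ± 0.18, adjusted p = 5.8e-05), Fam129c (log2 fold change 2.87 ± 0.16, adjusted p = 0.00013) and Myo1e (log2 fold change 0.95 ± 0.13, adjusted p = 0.00305). Leaving out any single library left between 19 and 25 members lower.

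The enzymes of hypermutation and class switching are switched on with that programme. Of 33 tested genes of hypermutation, switching and mismatch repair, 12 fell and 0 rose (36.4% lower, against 14.3% of all genes tested). Hmces, which protects abasic sites in DNA, was at 125, 256 and 309 CPM in YC and 31.7, 35.4 and 31.2 CPM in BIC (log2 fold change -2.81 ± 0.33, adjusted p = 0.0017). Polh, an error-prone polymerase, was at 63.5, 99 and 109 CPM in YC and 24.5, 21.4 and 34 CPM in BIC (log2 fold change -1.76 ± 0.26, adjusted p = 0.0035). Fam72a, which limits uracil repair at switched loci, was at 8.65, 8.37 and 11.7 CPM in YC and 1.48, 1.65 and 2.49 CPM in BIC (log2 fold change -2.36 ± 0.32, adjusted p = 0.0025). H2afx, the histone that marks breaks, had a log2 fold change of -1.85 ± 0.21 (adjusted p = 0.0013). In this group the lower count was 6 in the 12-library fit and 7 without YC 2.

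Naive and follicular genes were also lower more often than higher. Of 30 tested, 11 were down and 2 up (36.7% and 6.67%, against 14.3% and 14.6% of all genes tested, median -0.68). Fcer2a, which encodes the follicular marker CD23, was at 682, 627 and 547 CPM in YC and 4.72, 3.76 and 25.2 CPM in BIC (log2 fold change -5.79 ± 0.89, -7.18 without BIC 3, adjusted p = 0.0066). Ighd, the constant region of IgD, was at 568, 613 and 566 CPM in YC and 45.5, 60.3 and 90.1 CPM in BIC (log2 fold change -3.16 ± 0.26, adjusted p = 0.00044). Vpreb3, a chaperone of the receptor in young B cells, was at 38.4, 49.7 and 51.1 CPM in YC and 1.57, 1.57 and 2.46 CPM in BIC (log2 fold change -4.64 ± 0.25, adjusted p = 0.00013). Against that direction, Bcl2, the survival factor, rose from 88.4, 79.6 and 53.5 CPM in YC to 337, 377 and 209 CPM in BIC (log2 fold change 2.06 ± 0.28, adjusted p = 0.0026), and Fcmr, the IgM Fc receptor, by 1.39 ± 0.20 on the log2 scale (adjusted p = 0.0029). Cxcr5, the receptor that leads B cells into follicles, was at 341, 363 and 291 CPM in YC and 292, 363 and 325 CPM in BIC (log2 fold change -0.02 ± 0.14, adjusted p = 0.92). The 12-library fit called 7 members lower.

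Genes of marginal zone and B1 cells rose far more often than they fell: 16 of 32 tested were higher and 2 lower, with a median log2 fold change of 1.53. These innate-like B cells answer microbial antigens early and without germinal centres. Fcrl5 (chr3:87435773-87500678), an Fc receptor-like inhibitor of both cell types, was at 47.7, 62.5 and 58.2 CPM in YC and 862, 630.4 and 566 CPM in BIC (log2 fold change 3.61 ± 0.21, adjusted p = 0.00014). Cd9, a tetraspanin of marginal zone and B1 cells, was at 11, 11.3 and 8.43 CPM in YC and 150.3, 99.4 and 107 CPM in BIC (log2 fold change 3.54 ± 0.21, adjusted p = 0.00016). Plac8 was at 113, 129 and 116 CPM in YC and 752, 695 and 483 CPM in BIC (log2 fold change 2.43 ± 0.19, adjusted p = 0.00038). Nid1, a basement membrane protein, was at 33.8, 34.9 and 30.6 CPM in YC and 468, 275 and 211 CPM in BIC (log2 fold change 3.27 ± 0.30, adjusted p = 0.00075). Spn, which encodes the B1 marker CD43, was at 48.7, 65 and 56.3 CPM in YC and 392, 197 and 419.9 CPM in BIC (log2 fold change 2.57 ± 0.30, adjusted p = 0.0016). Ptpn22, a phosphatase that damps antigen receptor signals, was at 86, 76.4 and 63.4 CPM in YC and 616, 663 and 456 CPM in BIC (log2 fold change 2.94 ± 0.20, adjusted p = 0.00022). In each case the lowest BIC library was well above the highest YC library. Of all genes tested, 24.3% had every BIC library above every YC library. Cd5, which marks B1a cells, was at 2.71, 4.8 and 3.87 CPM in YC and 3.29, 5.3 and 28.4 CPM in BIC (log2 fold change 1.70 ± 0.81, adjusted p = 0.16): BIC 3 was high and BIC 1 and BIC 2 lay within or near the YC range. Cr2, the complement receptor CD21, which is high on marginal zone cells, was at 459, 624 and 607 CPM in YC and 15.5, 31.3 and 440.5 CPM in BIC (log2 fold change -1.79 ± 1.27, adjusted p = 0.34; -4.58 with adjusted p = 0.00046 without BIC 3), with BIC 3 near the YC libraries and BIC 1 and BIC 2 far below. Cd1d1, the lipid-presenting molecule that is high on marginal zone cells, was at 16.4, 17.1 and 15.9 CPM in YC and 61.4, 31.3 and 191 CPM in BIC (log2 fold change 2.52 ± 0.66, 1.5 without BIC 3, adjusted p = 0.035). Its call ended without each YC library (adjusted p = 0.097 to 0.11 without YC 1, YC 2 or YC 3). The 2 members that fell, Tm6sf1 (log2 fold change -1.27 ± 0.35, adjusted p = 0.036) and Bhlhe40 (log2 fold change -2.89 ± 0.77, adjusted p = 0.037), lost their calls without most single libraries. Tm6sf1 had adjusted p = 0.059 to 0.11 without YC 1, YC 2, YC 3, BIC 1 or BIC 2. Bhlhe40 had adjusted p = 0.053 to 0.11 without YC 1, YC 2, YC 3, BIC 1, BIC 2 or BIC 3, and its log2 fold change was -2.03 without YC 1.

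Memory and T-bet-type genes overlapped with that group and also rose more often than they fell. Of 34 tested, 19 were up and 6 down (55.9% and 17.6%, against 14.6% and 14.3% of all genes tested, median 0.98). Fcrl5 and Zbtb32 are in both lists. Itgb1, the beta1 integrin chain, was at 154, 184 and 190.4 CPM in YC and 932, 1016 and 721 CPM in BIC (log2 fold change 2.34 ± 0.17, adjusted p = 0.00035). Pdcd1lg2, which encodes the checkpoint ligand PD-L2 of memory B cells, was at 21, 18.3 and 14.2 CPM in YC and 137, 104 and 97.7 CPM in BIC (log2 fold change 2.66 ± 0.20, adjusted p = 0.00037). Cd80, a ligand of CD28, was at 12, 9.58 and 8.22 CPM in YC and 77.7, 53.8 and 60.03 CPM in BIC (log2 fold change 2.68 ± 0.21, adjusted p = 0.00038). Some members did not follow that direction. Tbx21, which encodes T-bet, was at 34.1, 26.9 and 27.6 CPM in YC and 5.32, 28.3 and 14.7 CPM in BIC (log2 fold change -0.88 ± 0.54, adjusted p = 0.27) and did not pass. Itgax, encoding CD11c, was at 31.3, 24.3 and 19.3 CPM in YC and 7.69, 5.3 and 5.5 CPM in BIC (log2 fold change -2.02 ± 0.25, adjusted p = 0.0019). Cxcr3, a target of T-bet, was at 12.4, 14.7 and 11.9 CPM in YC and 3.29, 5.22 and 3.63 CPM in BIC (log2 fold change -1.68 ± 0.26, adjusted p = 0.00398). Itgax and Cxcr3 were therefore below YC in all 3 BIC libraries, as were 23.9% of all genes tested. The number lower was 2 in the 12-library fit.

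The S100, annexin and cytoskeleton genes are known to rise as lymphocytes become memory or activated cells. They gave the second largest share higher of the lists drawn in the plot of called members. Of 35 tested, 22 were higher and 0 lower (62.9% and 0%, against 14.6% and 14.3% of all genes tested, median 1.07). S100a6, a calcium-binding protein, was at 5.19, 7.45 and 6.89 CPM in YC and 112, 219 and 219 CPM in BIC (log2 fold change 4.81 ± 0.32, adjusted p = 0.00028). Anxa5, a phosphatidylserine-binding protein, was at 25.1, 20.9 and 16.7 CPM in YC and 141, 142 and 153 CPM in BIC (log2 fold change 2.80 ± 0.17, adjusted p = 0.00016). Lgals1, which encodes galectin-1, was at 22.3, 21.3 and 22.5 CPM in YC and 91.9, 103 and 131 CPM in BIC (log2 fold change 2.30 ± 0.16, adjusted p = 0.00024). Ahnak, a large scaffold of the cell cortex, was at 545, 423 and 364 CPM in YC and 1817, 2036 and 2107 CPM in BIC (log2 fold change 2.16 ± 0.18, adjusted p = 0.00046). Vim, the intermediate filament of motile cells, was at 307, 296 and 283 CPM in YC and 708, 1046 and 918 CPM in BIC (log2 fold change 1.59 ± 0.17, adjusted p = 0.000997). All of these were higher in every BIC library than in any YC library, as were 24.3% of all genes tested. The 12-library fit called 11 members higher.

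**Figure D2:**
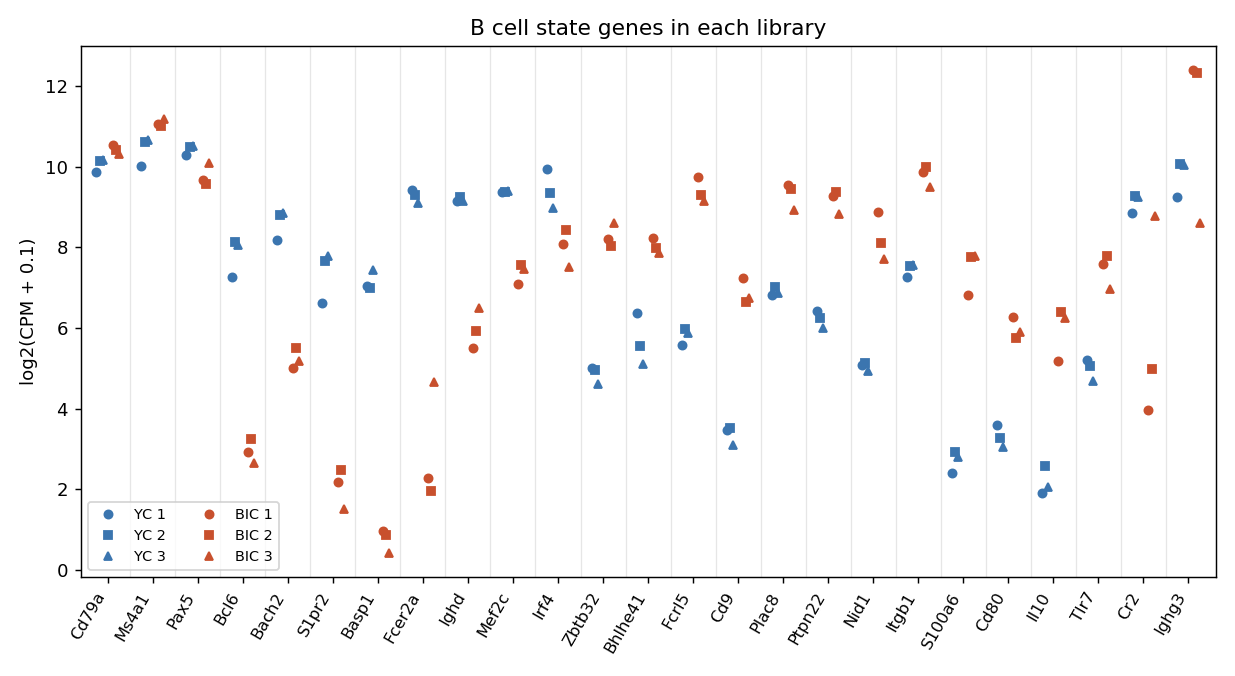
Level of 25 B cell state genes in each library, as log2 of CPM plus 0.1; YC libraries are blue and BIC libraries red, with 1 symbol per replicate number. Of the general B cell genes on the left, Cd79a and Ms4a1 lie slightly higher and Pax5 slightly lower in BIC. Germinal centre and follicular genes are lower in BIC, and the marginal zone, B1 and memory genes are higher. Cr2 and Ighg3 on the right are split, with BIC 3 apart from BIC 1 and BIC 2.

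The antibody genes were used to see how mixed the cells of a library were. A B cell clone uses 1 rearranged heavy-chain V gene and 1 light-chain V gene, so the share of V gene counts held by the top genes rises when few clones make up the sample. In YC the most counted functional heavy-chain V gene held 6.86% of the heavy-chain V counts in YC 1 (95% exact interval 6.68 to 7.05%), 8.89% in YC 2 (8.70 to 9.08%) and 8.54% in YC 3 (8.31 to 8.77%). In BIC it held 38.7% in BIC 1 (Ighv1-64, 38.1 to 39.3%), 68.3% in BIC 2 (Ighv1-9, 67.96 to 68.68%) and 32.5% in BIC 3 (Ighv12-3, 31.97 to 33.08%). It took 55, 53 and 55 V genes to reach 90% of these counts in YC, and 9, 2 and 9 in BIC. The kappa chains gave the same picture: the top V gene held 7.77%, 6.38% and 11.5% in YC, and 66.2% (Igkv1-135), 61.9% (Igkv12-46) and 34.7% (Igkv4-68) in BIC 1, 2 and 3. The second gene was also high in BIC, with 32.8%, 22.5% and 17.4% for the heavy chain and 29.1%, 23% and 28.7% for kappa, so that more than 1 abundant V gene was present in each tumour library. The intervals concern counting error only. They take each count as independent, although mates were counted separately, so they are too narrow even for that. No test is given, since an exact permutation test of 3 against 3 libraries cannot go below p = 0.1.

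Of 196 functional V genes tested, 125 fell and 0 rose in BIC, with 14.3% of all genes lower. A V gene that is abundant in 1 or 2 tumours and scarce in the rest gives no shared change and does not show in this test. Ighv12-3 was singled out after its values were seen, because it stood out in 2 mice: it held 22.5% of heavy-chain V counts in BIC 2 and 32.5% in BIC 3, against 0.188% in BIC 1 and 0.313%, 0.586% and 0.302% in YC. In the same libraries Igkv4-91 held 23% and 28.7% of kappa V counts, against 0.106% in BIC 1 and 0.612%, 1% and 0.903% in YC. Both V genes are known from B1 cells that bind phosphatidylcholine. Of the other V genes known from such cells, Ighv11-2 held at most 0.427% of heavy-chain V counts in any of the 6 libraries. Bulk counts do not show which heavy chain and light chain came from the same cell.

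**Figure D3:**
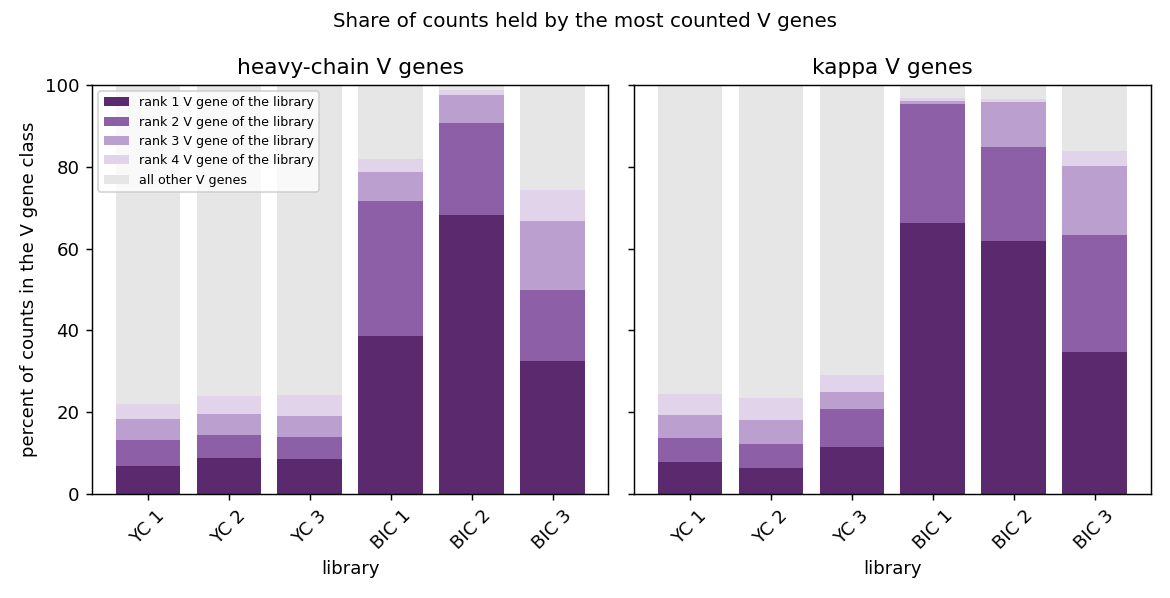
Percent of heavy-chain (left) and kappa (right) V gene counts held by the 4 most counted V genes of each library, stacked, with all other V genes in grey. The top V gene of YC libraries holds 6.38 to 11.5% and that of BIC libraries 32.5 to 68.3%.

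The isotype differed between tumours. Ighm, the constant region of IgM, held 70.7%, 73.2% and 72.6% of heavy-chain constant counts in YC. In BIC 1 and BIC 2 it held 28.6% and 37.3%, and Ighg3, the constant region of IgG3, held 69.0% and 58.0%, whereas BIC 3 had 92.4% Ighm and 5.65% Ighg3. As levels, Ighg3 was at 612, 1074 and 1048 CPM in YC and 5408, 5167 and 387 CPM in BIC (log2 fold change 2.0 ± 0.90, adjusted p = 0.15; 2.55 with adjusted p = 0.00064 without BIC 3). Ighm was at 8613, 9113 and 8987 CPM in YC and 2239, 3325 and 6326 CPM in BIC (log2 fold change -1.17 ± 0.36, adjusted p = 0.047). Of the other switched isotypes, Ighg1, Ighg2b and Igha fell. Ighg1 was at 1171, 809 and 941 CPM in YC and 35, 97.5 and 29.8 CPM in BIC (log2 fold change -4.17 ± 0.52, -4.90 without BIC 2, adjusted p = 0.0026). Ighg2b was at 502, 400.4 and 517 CPM in YC and 17.5, 37.2 and 5.92 CPM in BIC (log2 fold change -4.55 ± 0.68, -5.32 without BIC 2, adjusted p = 0.0058). Igha was at 238, 191 and 68.4 CPM in YC and 16.7, 23.4 and 8.83 CPM in BIC (log2 fold change -3.34 ± 0.58, adjusted p = 0.0089). Ighg2c was at 345, 196 and 204 CPM in YC and 61.4, 174 and 1.96 CPM in BIC (log2 fold change -1.65 ± 1.30, adjusted p = 0.39). Ighe was at 128, 60.6 and 43.6 CPM in YC and 11.4, 26 and 0.475 CPM in BIC (log2 fold change -2.62 ± 1.20, adjusted p = 0.16). Neither passed, and BIC 2 was the highest BIC library in both. The call of Ighm ended without 5 of the libraries (adjusted p = 0.071 to 0.14 without YC 1, YC 2, YC 3, BIC 1 or BIC 2). Counts of a constant gene can include germline transcripts, which encode no antibody.

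Plasma cell and secretion genes were near the shares over all genes, with 7 of 37 up and 6 down (18.9% and 16.2%, against 14.6% and 14.3%). Pdia4, a disulfide isomerase of the endoplasmic reticulum, was at 219.9, 196 and 178 CPM in YC and 1712, 1470.5 and 1239.6 CPM in BIC (log2 fold change 2.90 ± 0.17, adjusted p = 0.00014). Edem1, which clears misfolded proteins, was at 304, 322 and 321 CPM in YC and 539.7, 656 and 538 CPM in BIC (log2 fold change 0.87 ± 0.13, adjusted p = 0.0035). Jchain, which links secreted IgM and IgA, was at 597, 619.7 and 655 CPM in YC and 54.6, 6.04 and 8.55 CPM in BIC (log2 fold change -4.75 ± 0.96, -6.41 without BIC 1, adjusted p = 0.016). Its call was lost without YC 3 (adjusted p = 0.05 without YC 3). Ddit3, encoding the stress factor CHOP, was at 155, 93.8 and 79 CPM in YC and 12.9, 33.7 and 20.5 CPM in BIC (log2 fold change -2.29 ± 0.41, adjusted p = 0.0088). The plasma cell marker Sdc1 (CD138) was at 12.8, 12.4 and 12.6 CPM in YC and 6.51, 4.34 and 0.838 CPM in BIC (log2 fold change -1.69 ± 0.63, adjusted p = 0.086; -1.21 with adjusted p = 0.013 without BIC 3), with BIC 3 lowest. Xbp1, the factor of the secretory apparatus, was at 211, 163 and 151 CPM in YC and 150.2, 158 and 57.5 CPM in BIC (log2 fold change -0.52 ± 0.37, adjusted p = 0.33). Mzb1, a chaperone of marginal zone B and plasma cells, was at 244, 314 and 360.2 CPM in YC and 908, 746 and 291 CPM in BIC (log2 fold change 1.08 ± 0.40, adjusted p = 0.087; 1.44 with adjusted p = 0.00198 without BIC 3): BIC 1 and BIC 2 were high and BIC 3 lay within the YC range. For this list the higher count was 2 without YC 2 or in the 12-library fit, 4 without YC 1, BIC 1 or BIC 2, 3 without YC 3 and 14 without BIC 3. Lower calls numbered 3 without YC 3 or with no filter on low counts and 0 in the 12-library fit.

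Of 30 receptor components and coreceptors 10 were higher and 1 lower (33.3% and 3.33%, against 14.6% and 14.3% of all genes tested). Fcrl5 was among the higher ones. Cd38, an ectoenzyme, was at 149, 162 and 132 CPM in YC and 414, 335 and 321 CPM in BIC (log2 fold change 1.27 ± 0.15, adjusted p = 0.0015). Cd81, a tetraspanin of the coreceptor complex, was at 129, 137 and 159 CPM in YC and 392, 309.6 and 478 CPM in BIC (log2 fold change 1.47 ± 0.18, adjusted p = 0.0019). The inhibitory receptors Pirb (log2 fold change 1.74 ± 0.20, adjusted p = 0.0015) and Ceacam1 (log2 fold change 1.36 ± 0.17, adjusted p = 0.0018) also rose. The member that fell was Ptprc (log2 fold change -0.54 ± 0.14, adjusted p = 0.024), the gene of the sorting antigen B220, and its call ended without 3 of the libraries (adjusted p = 0.069 to 0.092 without YC 2, YC 3 or BIC 1). Among 40 signalling genes 7 rose and 9 fell (17.5% and 22.5%, against 14.6% and 14.3% of all genes tested). Nfatc1, a calcium-dependent factor that is high in B1 cells, was at 353, 362 and 327 CPM in YC and 750.3, 887 and 989 CPM in BIC (log2 fold change 1.33 ± 0.14, adjusted p = 0.0011). Blk, a Src family kinase, was at 494, 489 and 458 CPM in YC and 834, 919 and 796 CPM in BIC (log2 fold change 0.82 ± 0.12, adjusted p = 0.0032). Plcg2, the phospholipase that turns receptor signals into calcium, was at 626, 676 and 724 CPM in YC and 367, 405 and 401 CPM in BIC (log2 fold change -0.79 ± 0.12, adjusted p = 0.0038). Itpkb, an inositol kinase, had a log2 fold change of -1.44 ± 0.15 (adjusted p = 0.0011). The complex list had 5 higher members in the 12-library fit, and for the signalling list the higher count was 1 in the 12-library fit. Members called lower numbered 2 in the 12-library fit and 5 without YC 2.

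NF-kB core components were called in either direction about as often as all genes, although Ikbkb was higher. Of 40 subunits, inhibitors and kinase-complex genes 6 were higher and 6 lower (15% each, close to the background of 14.6% and 14.3%). Only 1 of the 6 higher members kept its call whichever library was left out. Ikbkb, the engineered gene, encodes a kinase of that complex and kept its call in each such fit. Rel, which encodes the c-Rel subunit, was at 1103, 547 and 546 CPM in YC and 169, 198 and 254 CPM in BIC (log2 fold change -1.82 ± 0.32, adjusted p = 0.0071); the gap between groups held although YC 1 was well above the other YC libraries. Rela was at 209.5, 137 and 128 CPM in YC and 165, 154 and 144 CPM in BIC (log2 fold change -0.03 ± 0.20, adjusted p = 0.91). Nfkb1 was at 339, 316 and 298 CPM in YC and 385, 395 and 422 CPM in BIC (log2 fold change 0.34 ± 0.11, adjusted p = 0.063). Nfkb2 was at 382, 205 and 197 CPM in YC and 327, 323 and 245 CPM in BIC (log2 fold change 0.19 ± 0.27, adjusted p = 0.63). Rela, Nfkb1 and Nfkb2 thus did not pass the threshold. Map3k14, which encodes the kinase NIK of the alternative pathway, was at 91.7, 97.9 and 92.3 CPM in YC and 47.6, 45.3 and 50.1 CPM in BIC (log2 fold change -0.98 ± 0.10, adjusted p = 0.0011). Traf6, an adaptor ligase upstream of IKK, was at 97.8, 78.6 and 82.8 CPM in YC and 46.9, 43.9 and 46.4 CPM in BIC (log2 fold change -0.92 ± 0.12, adjusted p = 0.0024). Otulin, which removes linear ubiquitin, was at 115, 109 and 110.1 CPM in YC and 45.9, 47.8 and 61.6 CPM in BIC (log2 fold change -1.11 ± 0.14, adjusted p = 0.00202), and Traf5 had a log2 fold change of -0.98 ± 0.16 (adjusted p = 0.0047). The inhibitor Nfkbia was at 506, 167 and 204 CPM in YC and 385, 437 and 315 CPM in BIC (log2 fold change 0.37 ± 0.42, adjusted p = 0.54; 1.03 with adjusted p = 0.016 without YC 1). Tnfaip3, encoding the inhibitor A20, was at 1003, 360.2 and 454 CPM in YC and 549, 731 and 360.1 CPM in BIC (log2 fold change -0.15 ± 0.43, adjusted p = 0.82). For this list the higher count was 1 without YC 2 or YC 3 or in the 12-library fit and 3 without BIC 1 or BIC 2, and it reached 9 without YC 1.

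Genes that NF-kB is known to switch on were split as well. Of 54 tested, 12 rose and 12 fell (22.2% each, against 14.6% and 14.3% of all genes tested, median 0.17). Ccl5, a chemokine, was at 1.9, 2.41 and 2.54 CPM in YC and 49.7, 26.1 and 31.9 CPM in BIC (log2 fold change 3.98 ± 0.30, adjusted p = 0.00035). Il10, the inhibitory cytokine made by some B1 and regulatory B cells, was at 3.61, 5.88 and 4.08 CPM in YC and 36.4, 83.7 and 76.2 CPM in BIC (log2 fold change 3.85 ± 0.37, adjusted p = 0.00094). Ptpn1, a phosphatase of JAK signals, was at 307, 278 and 276 CPM in YC and 720.4, 674 and 548 CPM in BIC (log2 fold change 1.17 ± 0.14, adjusted p = 0.0017). Cd80 rose as given above. Among those that fell besides Fas, Bcl2l1, encoding the survival factor BCL-XL, was at 19.3, 15.6 and 18.3 CPM in YC and 4., 3.93 and 3.58 CPM in BIC (log2 fold change -2.21 ± 0.20, adjusted p = 0.00059). Gadd45b, a stress gene, was at 299, 138 and 181 CPM in YC and 5.52, 14.8 and 4.39 CPM in BIC (log2 fold change -4.65 ± 0.60, -5.36 without BIC 2, adjusted p = 0.0035). Ccl22, a chemokine, was at 13, 4.03 and 6.22 CPM in YC and 0.268, 0.055 and 0.391 CPM in BIC (log2 fold change -5.0 ± 0.76, -4.41 without YC 1, adjusted p = 0.00398). A kappa B motif, GGGA and TTCC with 2 bases of any kind between them on either strand, lay within 250 bases upstream of the RefSeq start of 5 of the 37 listed genes with a promoter in the reference (13.5%, against 1.21% of all 32851 promoters). Those were Il6, Ltb, Cxcl10, Nfkb2 and Nfkbia, of which Il6 and Ltb were higher in BIC. A listed gene was counted if any of its start sites matched. By that rule 1.45% of the 10560 tested genes with a promoter held the motif. In the list the higher count was 6 in the 12-library fit. The number lower was 5 in the 12-library fit and 7 without BIC 1.

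Receptors of innate signals rose more often than they fell. Of 31 genes of Toll-like receptors and their MYD88 pathway 12 rose and 3 fell (38.7% and 9.68%, against 14.6% and 14.3% of all genes tested, median 0.71). Tlr7, the receptor of single-stranded RNA, was at 36.6, 33.3 and 25.8 CPM in YC and 193, 222 and 125 CPM in BIC (log2 fold change 2.5 ± 0.24, adjusted p = 0.00085). Ly96, which encodes MD-2, the partner of the lipopolysaccharide receptor TLR4, was at 2.31, 3.46 and 3.96 CPM in YC and 17.5, 16.5 and 20.1 CPM in BIC (log2 fold change 2.48 ± 0.26, adjusted p = 0.00103). Ly86, which encodes MD-1, the partner of RP105, was at 128, 131 and 139.9 CPM in YC and 364, 558 and 372 CPM in BIC (log2 fold change 1.70 ± 0.19, adjusted p = 0.0012). Ticam1, the adaptor TRIF, was at 42.3, 30.8 and 31.7 CPM in YC and 87.8, 102 and 89 CPM in BIC (log2 fold change 1.41 ± 0.16, adjusted p = 0.0013). Myd88 itself was at 40.9, 38.4 and 39.97 CPM in YC and 51.2, 49.1 and 37.9 CPM in BIC (log2 fold change 0.21 ± 0.14, adjusted p = 0.298). Tlr9 was at 164, 154 and 117 CPM in YC and 281, 244 and 177 CPM in BIC (log2 fold change 0.69 ± 0.21, adjusted p = 0.042) and lost its call without 5 of the libraries (adjusted p = 0.062 to 0.13 without YC 1, YC 2, YC 3, BIC 1 or BIC 2). The 12-library fit called 6 members higher. Type I interferon response genes had 12 of 35 higher and 2 lower (34.3% and 5.71%, against 14.6% and 14.3% of all genes tested, median 0.63). Those that rose were led by Ifi27 (log2 fold change 1.71 ± 0.16, adjusted p = 0.00068), Bst2 (log2 fold change 1.99 ± 0.22, adjusted p = 0.0012) and Ddx58, the RNA sensor RIG-I (log2 fold change 1.28 ± 0.17, adjusted p = 0.0026). In that list the higher count was 3 in the 12-library fit, 5 without YC 2, 6 without YC 3 and 7 without BIC 2.

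Among genes of secreted and surface signals, more rose than fell. Of 28 cytokines and chemokines 12 were higher and 1 lower (42.9% and 3.57%, against 14.6% and 14.3% of all genes tested), though most were rare transcripts. Il6 was at 0.214, 0.175 and 0.0604 CPM in YC and 2.66, 2.58 and 3.91 CPM in BIC (log2 fold change 4.29 ± 0.54, adjusted p = 0.00196). Cxcl9 was at 0.171, 0.0438 and 0.242 CPM in YC and 4.07, 3.68 and 2.74 CPM in BIC (log2 fold change 4.53 ± 0.61, adjusted p = 0.0025). Il15 was at 1.07, 1.38 and 1.72 CPM in YC and 8.01, 16.5 and 6.62 CPM in BIC (log2 fold change 2.90 ± 0.43, adjusted p = 0.0037). Of 35 TNF ligands and receptors 14 rose and 4 fell (40.0% and 11.4%, against the same 14.6% and 14.3%). Tnfsf8, the CD30 ligand, was at 0.384, 1.1 and 0.665 CPM in YC and 113, 86.3 and 22.8 CPM in BIC (log2 fold change 6.69 ± 0.79, adjusted p = 0.0026). Ltb, the lymphotoxin beta chain, was at 326, 297 and 314 CPM in YC and 1027, 616 and 674 CPM in BIC (log2 fold change 1.31 ± 0.20, adjusted p = 0.0044). Ngfr, a neurotrophin receptor, was at 9.85, 12.9 and 11.2 CPM in YC and 0.671, 0.824 and 1.06 CPM in BIC (log2 fold change -3.73 ± 0.30, adjusted p = 0.00042). For TNF genes the higher count was 8 without YC 2 or YC 3 or among genes averaging 5 CPM or more and 4 in the 12-library fit. For cytokines the higher count was 7 among genes averaging 5 CPM or more and 2 in the 12-library fit.

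Ligands and receptors that pass signals between B cells, T cells and phagocytes were examined next. Of 38 co-stimulation and checkpoint genes 12 rose and 3 fell (31.6% and 7.89%, against 14.6% and 14.3% of all genes tested), with Pdcd1lg2 and Cd80 leading as above. Sirpa, the receptor of CD47, was at 35.2, 36.8 and 36.1 CPM in YC and 255, 171 and 186 CPM in BIC (log2 fold change 2.5 ± 0.17, adjusted p = 0.00025). Entpd1, which encodes the ATP-degrading enzyme CD39, was at 22.2, 18.7 and 15.1 CPM in YC and 50.3, 74.5 and 69.998 CPM in BIC (log2 fold change 1.80 ± 0.21, adjusted p = 0.0014). Cd274, encoding PD-L1, was at 267, 163 and 110.1 CPM in YC and 244, 235 and 224 CPM in BIC (log2 fold change 0.38 ± 0.30, adjusted p = 0.37; 0.77 with adjusted p = 0.035 without YC 1) and did not pass. Slamf1 was at 102, 92.3 and 95.4 CPM in YC and 4.56, 5.77 and 15.9 CPM in BIC (log2 fold change -3.46 ± 0.49, -4.22 without BIC 3, adjusted p = 0.0043). Icosl, the ligand of ICOS on follicular helper T cells, was at 240.3, 243 and 216 CPM in YC and 39.7, 36.5 and 87.4 CPM in BIC (log2 fold change -2.10 ± 0.34, adjusted p = 0.0062). The 12-library fit called 7 members higher.

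Of 25 MHC class I genes 16 were higher and 0 lower (median 0.84); of 23 class II genes 5 were higher and 3 lower (median 0.05). B2m, the class I light chain, was at 1322, 1006 and 1005 CPM in YC and 2600.3, 3318 and 1933 CPM in BIC (log2 fold change 1.24 ± 0.22, adjusted p = 0.0075). Tapbp, which loads peptides, was at 183, 180.2 and 174 CPM in YC and 421, 449 and 393 CPM in BIC (log2 fold change 1.24 ± 0.11, adjusted p = 0.00064). Psme2, a proteasome activator, was at 92.5, 107 and 119.9 CPM in YC and 212, 281 and 254 CPM in BIC (log2 fold change 1.23 ± 0.16, adjusted p = 0.0021). Tap2, a peptide transporter, was at 109.9, 138 and 145 CPM in YC and 233, 275 and 214 CPM in BIC (log2 fold change 0.88 ± 0.16, adjusted p = 0.00703). H2-K1, a class I heavy chain, was at 2186, 1535 and 1500.3 CPM in YC and 4173, 4424 and 2745 CPM in BIC (log2 fold change 1.12 ± 0.24, adjusted p = 0.013). Its call ended without YC 2 or YC 3 (adjusted p = 0.056 to 0.061 without YC 2 or YC 3). H2-K1 shares sequence with other class I genes, so its count is uncertain. In class II the higher members were proteases and a reductase of the lysosome, led by Ctss (log2 fold change 1.33 ± 0.13, adjusted p = 0.00092), Ctsb (log2 fold change 1.32 ± 0.18, adjusted p = 0.0026) and Lgmn (log2 fold change 1.14 ± 0.15, adjusted p = 0.0026). The chain H2-Aa was at 2824, 2701 and 2908 CPM in YC and 3942, 3534 and 2730 CPM in BIC (log2 fold change 0.28 ± 0.16, adjusted p = 0.24). Cd74, the invariant chain, was at 9607, 9212 and 9830.2 CPM in YC and 11433, 12437 and 8144 CPM in BIC (log2 fold change 0.16 ± 0.18, adjusted p = 0.54). The editors H2-DMb1 (log2 fold change -0.88 ± 0.15, adjusted p = 0.0061) and H2-Ob (log2 fold change -0.72 ± 0.15, adjusted p = 0.011) were lower. For class I the higher count was 4 in the 12-library fit, 6 without YC 2 and 10 without YC 3. For class II the 12-library fit called 2 higher.
The promoter stretch of B2m is shown because it holds an interferon response core, GAAA and GAAA with 2 bases of any kind between, next to a kappa B motif. The capitals mark the motifs, the sequence is from RefSeq on GRCm38.p6 and runs from 159 to 97 bases upstream of the start. Of 21 class I genes with a promoter there, 3 held the interferon core and 1 the kappa B motif, against 2.98% and 1.21% of all promoters. Over the 10560 tested genes with a promoter the shares were 3.45% and 1.45%. The match is a description of the letters.
B2m (chr2:122147528-122147590, plus strand): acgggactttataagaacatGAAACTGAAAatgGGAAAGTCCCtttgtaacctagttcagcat

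Homing receptors, listed with the lipid and adenosine receptors that steer lymphocytes, moved both ways (11 up and 10 down of 42). These were 26.2% and 23.8%, against 14.6% and 14.3% of all genes tested. Ackr4, a scavenger of CCL19 and CCL21 known in germinal centre B cells, was at 13.7, 26.7 and 30.7 CPM in YC and 0.134, 0.11 and 0.0838 CPM in BIC (log2 fold change -7.70 ± 0.45, adjusted p = 0.00014). Ackr2, a scavenger of inflammatory chemokines known in innate-like B cells, was at 35.3, 31.9 and 31.1 CPM in YC and 139, 151 and 289 CPM in BIC (log2 fold change 2.56 ± 0.29, adjusted p = 0.0016). Ccr1 was at 9.95, 9.76 and 7.25 CPM in YC and 29, 46.8 and 64.5 CPM in BIC (log2 fold change 2.38 ± 0.30, adjusted p = 0.0022). S1pr3, a sphingosine-phosphate receptor of marginal zone cells, was at 63, 79.3 and 74.5 CPM in YC and 187, 119.6 and 172 CPM in BIC (log2 fold change 1.14 ± 0.19, adjusted p = 0.0053). Of 35 adhesion genes 13 rose and 5 fell (37.1% and 14.3%, against the same 14.6% and 14.3%). Itgb7, the beta7 integrin chain, was at 142, 143 and 118 CPM in YC and 374, 399 and 432 CPM in BIC (log2 fold change 1.58 ± 0.13, adjusted p = 0.00046). Itgam, which encodes CD11b, was at 4.17, 3.44 and 2.48 CPM in YC and 25.1, 29.6 and 15.5 CPM in BIC (log2 fold change 2.80 ± 0.32, adjusted p = 0.0014). Itgam is also a macrophage and neutrophil gene. The summed neutrophil markers stood at 1012, 1647 and 66.9 CPM in BIC and 303, 10.3 and 3.11 CPM in YC. The part of such cells in its change was not tested. In homing receptors the higher count was 4 without YC 3 or in the 12-library fit and 6 without YC 2. Lower calls numbered 6 without YC 2 or in the 12-library fit. In adhesion genes the higher count was 8 in the 12-library fit. Members called lower numbered 3 without YC 1 or BIC 1 or with no filter on low counts, 1 in the 12-library fit and 2 without YC 2, YC 3 or BIC 2.

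Among cytokine receptors and the JAK-STAT pathway 13 of 44 rose and 10 fell (29.5% and 22.7%, against 14.6% and 14.3% of all genes tested). Csf2rb, the shared chain of the IL-3, IL-5 and GM-CSF receptors, was at 21.7, 34.8 and 32.5 CPM in YC and 312, 219 and 195 CPM in BIC (log2 fold change 3.03 ± 0.26, adjusted p = 0.00053). Il12rb1 was at 11.4, 11.8 and 12.3 CPM in YC and 35.3, 52.3 and 34 CPM in BIC (log2 fold change 1.78 ± 0.20, adjusted p = 0.0012). Lifr was at 36, 26.2 and 19.1 CPM in YC and 3.4, 0.824 and 1.48 CPM in BIC (log2 fold change -3.82 ± 0.55, -4.55 without BIC 1, adjusted p = 0.0038). Stat4, which relays IL-12, was at 15.7, 16.8 and 12.2 CPM in YC and 4.25, 1.68 and 2.4 CPM in BIC (log2 fold change -2.42 ± 0.37, adjusted p = 0.0042). In this list the higher count was 4 in the 12-library fit and 7 without YC 3. The number lower was 3 in the 12-library fit, 4 without YC 2 and 5 without YC 3. Of 29 Notch pathway genes 1 rose and 6 fell (3.45% and 20.7%, against the same 14.6% and 14.3%). The ligand Dll1 was at 12, 5.81 and 6.95 CPM in YC and 0.179, 0.577 and 0.223 CPM in BIC (log2 fold change -4.66 ± 0.58, -5.34 without BIC 2, adjusted p = 0.0019). The target Nrarp was at 3.18, 0.702 and 1.12 CPM in YC and 0.112, 0.055 and 0.0559 CPM in BIC (log2 fold change -4.41 ± 0.78, -3.54 without YC 1, adjusted p = 0.0068). YC 1 was highest in both. The lower count was 3 in the 12-library fit and 2 among genes averaging 5 CPM or more.

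Most genes of the division machinery were lower in BIC. Of 46 mitosis genes tested 43 fell and 0 rose (93.5% lower, against 14.3% of all genes tested, median -1.88). Of 44 DNA replication genes 36 fell and 0 rose (81.8% lower, median -1.31). Cdc20, the activator of the anaphase-promoting complex, was at 78.7, 87 and 97.3 CPM in YC and 14.6, 13.5 and 19.999 CPM in BIC (log2 fold change -2.45 ± 0.18, adjusted p = 0.00035). Ccnb1, the mitotic cyclin B1, was at 56.3, 53.7 and 65.3 CPM in YC and 14.1, 12.8 and 16.9 CPM in BIC (log2 fold change -2.0 ± 0.16, adjusted p = 0.00038). Ccna2, cyclin A2, was at 90.1, 96 and 102 CPM in YC and 18.7, 19.7 and 27.8 CPM in BIC (log2 fold change -2.12 ± 0.18, adjusted p = 0.00047). Aurka, a spindle kinase, was at 36.3, 33.6 and 36.9 CPM in YC and 8.88, 9.64 and 11.8 CPM in BIC (log2 fold change -1.82 ± 0.16, adjusted p = 0.00057). For replication, Dbf4, which activates the origin kinase, was at 63.4, 66.9 and 75.7 CPM in YC and 27.1, 26 and 29.1 CPM in BIC (log2 fold change -1.32 ± 0.12, adjusted p = 0.00066). Orc6, an origin subunit, was at 49.2, 48.6 and 53.4 CPM in YC and 18.2, 22 and 20.5 CPM in BIC (log2 fold change -1.32 ± 0.13, adjusted p = 0.00079). Mcm10, a helicase cofactor, was at 47.1, 53.6 and 61.2 CPM in YC and 10.8, 15.6 and 18.9 CPM in BIC (log2 fold change -1.84 ± 0.22, adjusted p = 0.0018). Mki67, which encodes the division marker Ki-67 and was picked after its values were seen, was at 606, 1153 and 1104 CPM in YC and 216, 236 and 323 CPM in BIC (log2 fold change -1.89 ± 0.28, adjusted p = 0.0038). The BIC libraries still held transcripts of each of these genes. Between 40 and 44 mitosis genes were lower when single libraries were left out, and for replication the lower count was 23 without YC 3.
Promoters of Ccnb2, Cdc20 and Aurka are shown because they carry the elements typical of genes that peak in late cell cycle: CCAAT boxes (CCAAT) and, in the first 2, the cell cycle homology region (CHR, TTTGAA), searched on both strands within 250 bases upstream of the RefSeq start (GRCm38.p6) and printed in capitals. Ccnb2 was chosen for its letters after the values were seen. Each run ends 1 base before the start site.
Ccnb2 (chr9:70421555-70421741, minus strand): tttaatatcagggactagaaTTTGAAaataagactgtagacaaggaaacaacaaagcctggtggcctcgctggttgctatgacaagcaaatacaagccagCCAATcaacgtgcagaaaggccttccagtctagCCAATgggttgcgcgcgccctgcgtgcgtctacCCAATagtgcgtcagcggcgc
Cdc20 (chr4:118437344-118437416, minus strand): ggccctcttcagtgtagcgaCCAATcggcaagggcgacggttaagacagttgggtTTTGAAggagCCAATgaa
Aurka (chr2:172370571-172370641, minus strand): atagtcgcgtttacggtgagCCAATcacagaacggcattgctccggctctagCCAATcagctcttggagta
Of the 34 lower mitosis genes with a promoter in the reference, 26 (76.5%) held a CCAAT box and 13 (38.2%) a CHR, against 33.8% and 16.0% of all promoters. Over the 37 tested mitosis genes with a promoter, called or not, the shares were 73.0% and 37.8%. Over all 10560 tested genes with one they were 40.3% and 13.3%. Of 30 lower replication genes 18 (60%) held a CCAAT box and 4 (13.3%) a CHR. The matches are descriptions and no binding was measured.

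Upstream of the division machinery, the cell cycle entry genes changed in both directions (9 up and 17 down of 44). These were 20.5% and 38.6%, against 14.6% and 14.3% of all genes tested. Ccnd2, cyclin D2, was at 111, 49.9 and 45.5 CPM in YC and 361, 479 and 411 CPM in BIC (log2 fold change 2.60 ± 0.37, adjusted p = 0.0038). Ccnd3, the D-type cyclin of germinal centre cells, was at 141, 161 and 170.1 CPM in YC and 64.4, 78.5 and 68.9 CPM in BIC (log2 fold change -1.16 ± 0.13, adjusted p = 0.0013). Rb1, the brake on E2F, was at 98.6, 90.6 and 84.5 CPM in YC and 208, 217 and 191 CPM in BIC (log2 fold change 1.17 ± 0.12, adjusted p = 0.00087). Cdkn2a, encoding the inhibitors p16 and p19ARF, was at 1.67, 3.68 and 3.14 CPM in YC and 20.9, 40.5 and 9.27 CPM in BIC (log2 fold change 3.06 ± 0.59, 2.43 without BIC 2, adjusted p = 0.011). E2f8, a repressor that peaks in S phase, was at 50.3, 61.4 and 67 CPM in YC and 7.42, 10.5 and 14 CPM in BIC (log2 fold change -2.48 ± 0.25, adjusted p = 0.00092). Cks2, a cofactor of mitotic kinases, was at 46.4, 48.7 and 60.5 CPM in YC and 6.75, 11.8 and 13 CPM in BIC (log2 fold change -2.30 ± 0.26, adjusted p = 0.0014). Cdkn1a, encoding p21, was at 7.88, 3.11 and 2.96 CPM in YC and 50.7, 13 and 32 CPM in BIC (log2 fold change 2.77 ± 0.61, 3.39 without YC 1, adjusted p = 0.018). Its call ended without YC 2 or YC 3 (adjusted p = 0.07 to 0.074 without YC 2 or YC 3). Myc, although not in this group, was at 567, 317 and 306 CPM in YC and 178, 313 and 463 CPM in BIC (log2 fold change -0.32 ± 0.39, adjusted p = 0.57) and did not pass. In the list the higher count was 3 in the 12-library fit, 4 without YC 2 and 5 without YC 3. Lower calls numbered 8 in the 12-library fit and 11 without YC 2 or YC 3.

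Survival genes of the BCL2 family were called about as often as all genes (4 up and 5 down of 26, or 15.4% and 19.2% against 14.6% and 14.3%). Of the anti-apoptotic genes, Bcl2 rose and Bcl2l1 fell, as given above. Mcl1, another one, was at 709, 617 and 617 CPM in YC and 1157, 813 and 780.2 CPM in BIC (log2 fold change 0.50 ± 0.18, adjusted p = 0.074; 0.61 with adjusted p = 0.0397 without BIC 3) and did not pass. Among the killers of the BH3-only class, Bcl2l11, encoding BIM, was at 93.6, 59.1 and 58.1 CPM in YC and 14.3, 14.7 and 19.6 CPM in BIC (log2 fold change -2.12 ± 0.24, adjusted p = 0.0012). Bmf was at 41.5, 58.3 and 58.5 CPM in YC and 12.3, 7.53 and 4.58 CPM in BIC (log2 fold change -2.70 ± 0.36, adjusted p = 0.0029). Pmaip1, encoding NOXA, had a log2 fold change of -1.21 ± 0.24 (adjusted p = 0.0098). Bax, a pore former, was at 52.1, 44.8 and 49.2 CPM in YC and 138, 79.1 and 84.7 CPM in BIC (log2 fold change 1.04 ± 0.22, adjusted p = 0.013). Its call ended without YC 2 or YC 3 (adjusted p = 0.0501 to 0.063 without YC 2 or YC 3). Of 38 p53 target genes 14 rose and 9 fell; Zmat3, an RNA-binding protein, was at 17, 20.3 and 16.2 CPM in YC and 165, 80.4 and 92.8 CPM in BIC (log2 fold change 2.66 ± 0.29, adjusted p = 0.0012). Ccng1 was at 90.4, 108 and 112 CPM in YC and 499.6, 311 and 301 CPM in BIC (log2 fold change 1.84 ± 0.22, adjusted p = 0.0017). Aen, a nuclease, was at 30.5, 34.9 and 31.8 CPM in YC and 66.5, 53.5 and 67.3 CPM in BIC (log2 fold change 0.95 ± 0.13, adjusted p = 0.0031), while Mdm2 was at 151, 154 and 136 CPM in YC and 134, 121 and 102 CPM in BIC (log2 fold change -0.31 ± 0.13, adjusted p = 0.13). Gadd45a was at 24.3, 20.9 and 22.3 CPM in YC and 3.06, 5.99 and 1.15 CPM in BIC (log2 fold change -2.73 ± 0.54, -3.40 without BIC 2, adjusted p = 0.012). The 12-library fit called 3 BCL2 family genes lower. For p53 targets the higher count was 9 in the 12-library fit and 8 without YC 2. Members called lower numbered 4 in the 12-library fit and 5 without YC 2 or YC 3.

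Part of the DNA repair and nucleotide supply genes were lower too. Of 40 break repair and checkpoint genes 18 fell and 0 rose. Fancm, a fork-remodelling helicase, was at 60.2, 88 and 90.9 CPM in YC and 19.5, 16.7 and 23.7 CPM in BIC (log2 fold change -1.99 ± 0.21, adjusted p = 0.00101). Parp1, a sensor of strand breaks, was at 454, 489 and 517 CPM in YC and 226, 246 and 236 CPM in BIC (log2 fold change -1.05 ± 0.11, adjusted p = 0.0012). Of 38 nucleotide and one-carbon genes 14 fell and 0 rose (36.8% lower, against the same 14.3%). Rrm2, the inducible subunit of ribonucleotide reductase, was at 133, 148 and 165 CPM in YC and 28.5, 41.2 and 37.1 CPM in BIC (log2 fold change -2.06 ± 0.17, adjusted p = 0.00044). Dck, which salvages nucleosides, was at 135, 244 and 284 CPM in YC and 51.5, 48.6 and 39.5 CPM in BIC (log2 fold change -2.25 ± 0.28, adjusted p = 0.0021). For repair the lower count was 11 without BIC 2 or in the 12-library fit, 10 without YC 2 and 9 without YC 3. For nucleotides the lower count was 7 in the 12-library fit, 9 without YC 2 and 8 without YC 3.

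Growth and energy genes gave few calls. Of 40 ribosome assembly and MYC target genes 2 rose and 0 fell (median 0.15), and of 38 oxidative phosphorylation genes 4 rose and 0 fell (median 0.13). Both shares are under the background of 14.6% higher and 14.3% lower, and the largest called change was 0.57 among the former and 0.52 among the latter. Those calls were fragile. Polr1a, a subunit of RNA polymerase I, had a log2 fold change of 0.55 ± 0.13 (adjusted p = 0.0199) and adjusted p = 0.051 to 0.0997 without YC 2, YC 3 or BIC 2. Cox7b, a subunit of complex IV, had a log2 fold change of 0.52 ± 0.12 (adjusted p = 0.0202) and adjusted p = 0.054 to 0.096 without YC 1, YC 2 or BIC 2. Glycolysis genes had 5 up and 4 down of 30, also near the background. Slc16a1, a lactate transporter, was at 63.7, 42.2 and 46.7 CPM in YC and 3.98, 3.57 and 1.62 CPM in BIC (log2 fold change -4.05 ± 0.37, adjusted p = 0.00071). G6pdx, which opens the pentose phosphate pathway, was at 35.7, 35.4 and 38.4 CPM in YC and 68.3, 79.7 and 59.6 CPM in BIC (log2 fold change 0.92 ± 0.14, adjusted p = 0.0036). In glycolysis the higher count was 3 without BIC 1 or with limma-voom, 0 in the 12-library fit, 1 without YC 2 or YC 3 and 2 without BIC 2.

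Of 35 cholesterol and fatty acid synthesis genes 18 were lower and 6 higher (51.4% and 17.1%, against 14.3% and 14.6% of all genes tested, median -0.56). Their summed level was 3709, 3456 and 3590 CPM in YC and 3872, 3446 and 4365 CPM in BIC, with no common direction. Hmgcs1, the synthase at the start of the pathway, was at 122, 120.4 and 126 CPM in YC and 37.4, 30.6 and 42 CPM in BIC (log2 fold change -1.75 ± 0.14, adjusted p = 0.00043). Idi1, an isomerase, was at 25.1, 26.2 and 27.9 CPM in YC and 3.82, 5.28 and 6.2 CPM in BIC (log2 fold change -2.37 ± 0.22, adjusted p = 0.00068). Sqle, which makes squalene epoxide, was at 52.8, 56.8 and 71.9 CPM in YC and 10.4, 4.67 and 12.4 CPM in BIC (log2 fold change -2.72 ± 0.36, adjusted p = 0.0027). Msmo1, a later demethylase, was at 56, 56.6 and 52.9 CPM in YC and 16.3, 14.6 and 11.6 CPM in BIC (log2 fold change -1.96 ± 0.16, adjusted p = 0.00042). Insig1, the sterol-responsive inhibitor of the pathway, was at 231, 138 and 96.8 CPM in YC and 18.2, 14.1 and 18.9 CPM in BIC (log2 fold change -3.19 ± 0.34, adjusted p = 0.0012). Some higher members belonged to another arm. Scd2, a fatty acid desaturase, was at 131, 157 and 162 CPM in YC and 624, 486 and 419 CPM in BIC (log2 fold change 1.76 ± 0.18, adjusted p = 0.00094). Nr1h3, the oxysterol receptor LXR alpha, was at 0.384, 0.46 and 0.997 CPM in YC and 3.2, 2.94 and 4.02 CPM in BIC (log2 fold change 2.47 ± 0.47, adjusted p = 0.0089). Nr1h3 is also known from macrophages, whose markers are given below. For the lower direction every single library could be left out with 15 to 19 members called; for the higher, the higher count was 2 in the 12-library fit and 3 without YC 2 or YC 3.
The Hmgcs1 promoter is shown because it was the only member of the list whose window held the sterol element letters TCACNCCAC (1 of 25 with a promoter). The letters stood in 1.05% of all promoters and in those of 1.28% of the 10560 tested genes with one. The capitals mark them, from RefSeq on GRCm38.p6.
Hmgcs1 (chr13:119690194-119690242, plus strand): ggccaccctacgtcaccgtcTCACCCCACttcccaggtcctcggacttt

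Lysosome and autophagy genes rose more often than they fell. Of 42 tested, 19 were higher and 4 lower (45.2% and 9.52%, against 14.6% and 14.3% of all genes tested, median 0.51). Psap, the precursor of saposins, was at 721, 646 and 634 CPM in YC and 1736, 2088 and 1679 CPM in BIC (log2 fold change 1.46 ± 0.14, adjusted p = 0.00078). Grn, which encodes progranulin, was at 103, 95.8 and 83.8 CPM in YC and 450.2, 675 and 303 CPM in BIC (log2 fold change 2.33 ± 0.29, adjusted p = 0.0019). Ctsc, a protease, was at 255, 233 and 229 CPM in YC and 804, 728 and 487 CPM in BIC (log2 fold change 1.49 ± 0.20, adjusted p = 0.0023). Gla, alpha-galactosidase, went the other way and was at 193, 94.5 and 95.6 CPM in YC and 8.09, 10.8 and 8.91 CPM in BIC (log2 fold change -3.79 ± 0.33, adjusted p = 0.00068), with YC 1 highest. Macrophages hold many of these transcripts, and the macrophage and monocyte markers summed to 135, 72 and 68 CPM in YC and 376, 382 and 232 CPM in BIC; their part in the lysosomal change was not tested. In lysosome genes the higher count was 7 in the 12-library fit and 12 without YC 2 or YC 3.

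**Figure D4:**
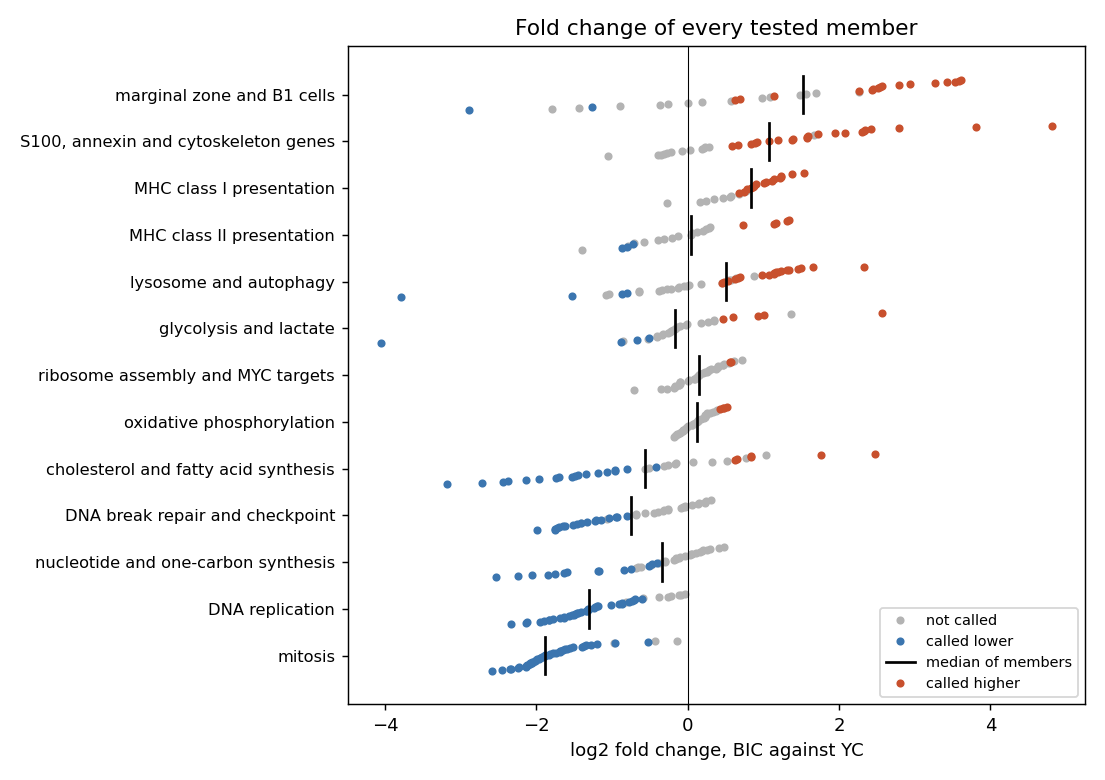
Log2 fold change, BIC against YC, of every tested member of 13 gene lists, with members called lower in blue, called higher in red, not called in grey and the list's median as a black bar. Among these 13 lists the medians run from -1.88 for mitosis to 1.53 for marginal zone and B1 cells, and ribosome and oxidative phosphorylation genes sit near 0.

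Chromatin regulators that are mutated in lymphoma were lower more often. Of 42 tested, 20 were down and 2 up (47.6% and 4.76%, against 14.3% and 14.6% of all genes tested). Mef2c, given above as a transcription factor, was also in this list and among those that fell. Arid1b, a subunit of the SWI/SNF remodeller, was at 227, 222 and 219 CPM in YC and 93.8, 89.5 and 105 CPM in BIC (log2 fold change -1.21 ± 0.11, adjusted p = 0.00069). Hdac7, a histone deacetylase, was at 225, 254 and 267 CPM in YC and 92.1, 101 and 108 CPM in BIC (log2 fold change -1.31 ± 0.12, adjusted p = 0.00073). Dnmt1, the maintenance methylase of dividing cells, was at 375, 494 and 585 CPM in YC and 105, 95.4 and 144 CPM in BIC (log2 fold change -2.08 ± 0.22, adjusted p = 0.0012). Ezh2, the methyltransferase of the germinal centre, was at 94.3, 136 and 151 CPM in YC and 67.1, 99.9 and 44.7 CPM in BIC (log2 fold change -0.85 ± 0.31, adjusted p = 0.082; -1.17 with adjusted p = 0.0298 without BIC 2) and did not pass. Its relative Ezh1 was at 64.1, 70.002 and 63.2 CPM in YC and 106, 113 and 98.7 CPM in BIC (log2 fold change 0.68 ± 0.11, adjusted p = 0.0047). In this list the lower count was 6 in the 12-library fit, 11 without YC 2, 13 without YC 3 and 12 without BIC 2.

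Immediate-early and heat shock genes fell more often than they rose, and most did not pass. Of 39 immediate-early genes 14 fell and 2 rose (35.9% and 5.13%, against 14.3% and 14.6% of all genes tested). Csrnp1 was at 371, 275 and 232 CPM in YC and 62.4, 95.5 and 63 CPM in BIC (log2 fold change -1.99 ± 0.24, adjusted p = 0.0018). Nr4a2, a nuclear receptor, was at 31.6, 10.9 and 9.16 CPM in YC and 0.559, 1.1 and 0.335 CPM in BIC (log2 fold change -4.69 ± 0.69, -3.92 without YC 1, adjusted p = 0.0039). Dusp5, a phosphatase of ERK, was at 67.5, 37.7 and 31.2 CPM in YC and 7.49, 9.95 and 4.94 CPM in BIC (log2 fold change -2.61 ± 0.38, adjusted p = 0.0037); in each YC 1 was the highest of the 6. Batf3, a partner of JUN, rose (log2 fold change 3.85 ± 0.33, adjusted p = 0.00049). Fos was at 1242, 1237 and 1185 CPM in YC and 252, 1474 and 1129.7 CPM in BIC (log2 fold change -0.36 ± 0.57, adjusted p = 0.67), with BIC 1 alone low. Egr1 was at 986, 583 and 342 CPM in YC and 54.2, 382 and 556 CPM in BIC (log2 fold change -0.94 ± 0.82, adjusted p = 0.43). Of 30 heat shock genes 10 fell and 1 rose (33.3% and 3.33%, against the same 14.3% and 14.6%). Hspa1a, an inducible HSP70 gene, was at 1101, 269.8 and 769 CPM in YC and 2.62, 9.4 and 12.8 CPM in BIC (log2 fold change -6.43 ± 0.87, adjusted p = 0.0044). Hspa1b, its neighbour and copy, was at 2136, 672 and 2007 CPM in YC and 16.6, 64.2 and 55.1 CPM in BIC (log2 fold change -5.15 ± 0.73, adjusted p = 0.0048). Hsph1, a cochaperone, was at 1346, 523 and 992 CPM in YC and 85.3, 210.3 and 131 CPM in BIC (log2 fold change -2.74 ± 0.46, adjusted p = 0.0068). YC 2 was the lowest YC library in each. Hspa1a and Hspa1b are near-identical copies, so the split between them is uncertain. For immediate-early genes the lower count was 22 with DESeq2, 7 with no filter on low counts and 6 in the 12-library fit. For heat shock genes the lower count was 2 in the 12-library fit and 6 without YC 3.

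Beyond the lists, the genes with the best-supported moderate changes (0.5 to 2 on the log2 scale, a mean of at least 50 CPM, groups apart) ranged widely in function. The 10 higher genes were Gbp5, Cyba, Rasal1, Acbd4, St3gal1, Plgrkt, Naip6, Plin3, Itgb7 and Capn2. Gbp5, an interferon-induced GTPase of host defence, was at 27.9, 25.7 and 24.3 CPM in YC and 79.2, 92.1 and 85.9 CPM in BIC (log2 fold change 1.72 ± 0.12, adjusted p = 0.00027). Cyba, the membrane subunit of the phagocyte oxidase, was at 196, 176 and 185 CPM in YC and 582, 551 and 523 CPM in BIC (log2 fold change 1.57 ± 0.11, adjusted p = 0.00034). Rasal1, a Ras GTPase-activating protein, was at 45.9, 43.1 and 39.6 CPM in YC and 149, 167 and 130.2 CPM in BIC (log2 fold change 1.79 ± 0.13, adjusted p = 0.00035). St3gal1, a sialyltransferase of surface glycans, was at 151, 127 and 122 CPM in YC and 571, 464 and 484 CPM in BIC (log2 fold change 1.92 ± 0.15, adjusted p = 0.00037). Plin3, a lipid droplet coat protein, was at 22.7, 27.8 and 27.1 CPM in YC and 87.1, 123 and 99 CPM in BIC (log2 fold change 1.99 ± 0.16, adjusted p = 0.00045). The 10 lower genes were Fchsd2, Syne1, Mef2c, Xylt1, Hmgcs1, Aff4, Mprip, Net1, Plekhm1 and Bicra. Syne1, which links the nucleus to the cytoskeleton, was at 276, 284 and 277 CPM in YC and 89.98, 78.8 and 67.5 CPM in BIC (log2 fold change -1.82 ± 0.14, adjusted p = 0.00035). Fchsd2, a membrane-bending protein, was at 433, 389 and 367 CPM in YC and 129, 117 and 108 CPM in BIC (log2 fold change -1.75 ± 0.13, adjusted p = 0.00035). Aff4, a subunit of the super elongation complex, was at 468, 429 and 404 CPM in YC and 147, 159 and 167 CPM in BIC (log2 fold change -1.46 ± 0.12, adjusted p = 0.00044). Mprip, which targets myosin phosphatase, was at 231, 303 and 339 CPM in YC and 71.3, 74.4 and 81.6 CPM in BIC (log2 fold change -1.94 ± 0.17, adjusted p = 0.00052). Bicra, a subunit of a SWI/SNF complex, was at 192, 233 and 229 CPM in YC and 89.8, 80.1 and 82.6 CPM in BIC (log2 fold change -1.37 ± 0.12, adjusted p = 0.00064). For all 20 genes the call held whichever library was left out.

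At the extremes the tumours differed among themselves. Fras1, an extracellular matrix protein, was at 1.24, 1.71 and 2.69 CPM in YC and 611, 246 and 399 CPM in BIC (log2 fold change 7.81 ± 0.51, adjusted p = 0.00035) and high in all 3 tumours. Met, the receptor of hepatocyte growth factor, was at 0.0427, 0.0438 and 0 CPM in YC and 0.894, 7.09 and 24.2 CPM in BIC (log2 fold change 8.28 ± 1.53, 6.87 without BIC 3, adjusted p = 0.0101), lowest in BIC 1 and highest in BIC 3. Foxp2 was at 0.0427, 0.0877 and 0.0604 CPM in YC and 22.4, 47.5 and 0.642 CPM in BIC (log2 fold change 8.46 ± 1.76, 7.44 without BIC 2, adjusted p = 0.017). Erich2 was at 0, 0.132 and 0.0302 CPM in YC and 1.99, 3.52 and 46.6 CPM in BIC (log2 fold change 8.21 ± 1.86, 5.57 without BIC 3, 7.59 without YC 1, 10.08 without YC 2, adjusted p = 0.023). Foxp2 was lowest in BIC 3, and Erich2 was highest there. Their calls ended without YC libraries, with adjusted p = 0.061 to 0.073 without YC 1, YC 2 or YC 3 for Foxp2 and adjusted p = 0.066 to 0.089 without YC 1, YC 2 or YC 3 for Erich2. The lowest were the Y-linked Uty, Ddx3y and Eif2s3y, the actin nucleator Cobl, at 17.7, 20.04 and 34.7 CPM in YC and 0.0447, 0 and 0.112 CPM in BIC, and Nuggc, a germinal centre GTPase, at 119, 254 and 294 CPM in YC and 0.358, 0.22 and 0.196 CPM in BIC.

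Transcripts of other cell types were present at uneven levels, with the highest sums for neutrophil markers in BIC 1 and BIC 2. T cell markers summed to 232, 292 and 267 CPM in YC and 484, 509 and 392 CPM in BIC, with 6 of 24 higher and 0 lower. Cd3g was at 1.88, 3.4 and 2.54 CPM in YC and 89.2, 86 and 12 CPM in BIC (log2 fold change 4.58 ± 0.82, adjusted p = 0.0105) and lost its call without YC 3 (adjusted p = 0.053 without YC 3). Cd3e was at 1.15, 1.67 and 0.211 CPM in YC and 4.09, 2.2 and 5.7 CPM in BIC (log2 fold change 1.97 ± 0.71, adjusted p = 0.077). The 2 chains of the same T cell complex thus had very different levels in BIC 1 and BIC 2. Lck, also expressed by B1 cells, was at 50.2, 68.6 and 76.4 CPM in YC and 39.7, 46.5 and 81.9 CPM in BIC (log2 fold change -0.21 ± 0.29, adjusted p = 0.62). Of 11 NK cell markers 6 rose and 1 fell (54.5% and 9.09%). Nkg7, a granule protein, was at 0.94, 0.833 and 0.604 CPM in YC and 11.3, 8.74 and 6.03 CPM in BIC (log2 fold change 3.44 ± 0.37, adjusted p = 0.0011). Gzmb, granzyme B, was at 0.256, 0.197 and 0.121 CPM in YC and 4.16, 1.92 and 2.99 CPM in BIC (log2 fold change 3.94 ± 0.51, adjusted p = 0.0021). Neutrophil markers summed to 1012, 1647 and 66.9 CPM in BIC 1, 2 and 3 and 303, 10.3 and 3.11 CPM in YC 1, 2 and 3, so YC 1, BIC 1 and BIC 2 held most. Of 15 tested, 2 were called higher and 0 lower (13.3% and 0%), while all 15 had a positive log2 fold change (median 3.34). Of the macrophage and monocyte list, 9 genes of 19 were higher and 1 was lower (47.4% and 5.26%). Cd68 was at 15.7, 12.1 and 13 CPM in YC and 80.1, 67.5 and 66.7 CPM in BIC (log2 fold change 2.39 ± 0.15, adjusted p = 0.00021). Csf1r was at 3.67, 2.7 and 1.45 CPM in YC and 21.7, 15.3 and 13.6 CPM in BIC (log2 fold change 2.69 ± 0.38, adjusted p = 0.0031). C1qa was at 1.67, 0.614 and 0.725 CPM in YC and 8.18, 6.48 and 4.08 CPM in BIC (log2 fold change 2.63 ± 0.50, 3.22 without YC 1, adjusted p = 0.0088). Adgre1, the gene of F4/80, was lower, and was at 28.7, 25.5 and 24.8 CPM in YC and 4.2, 3.35 and 3.55 CPM in BIC (log2 fold change -2.83 ± 0.18, adjusted p = 0.00021). Erythroid markers summed to 791, 146 and 187 CPM in YC and 153, 409 and 274 CPM in BIC, megakaryocyte markers to at most 24.2 CPM and stromal markers to 182, 174 and 161 CPM in YC and 116, 108 and 255 CPM in BIC. For T cell markers the higher count was 11 with DESeq2, 3 among genes averaging 5 CPM or more, 1 without YC 3 or in the 12-library fit and 2 without YC 1, YC 2 or BIC 1. For NK markers the higher count was 1 among genes averaging 5 CPM or more, 2 in the 12-library fit and 3 without YC 2 or YC 3. For macrophage markers the higher count was 14 with DESeq2, 5 without YC 2 or YC 3 or among genes averaging 5 CPM or more and 2 in the 12-library fit. What part these cells have in the gene groups above was not tested.

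**Figure D5:**
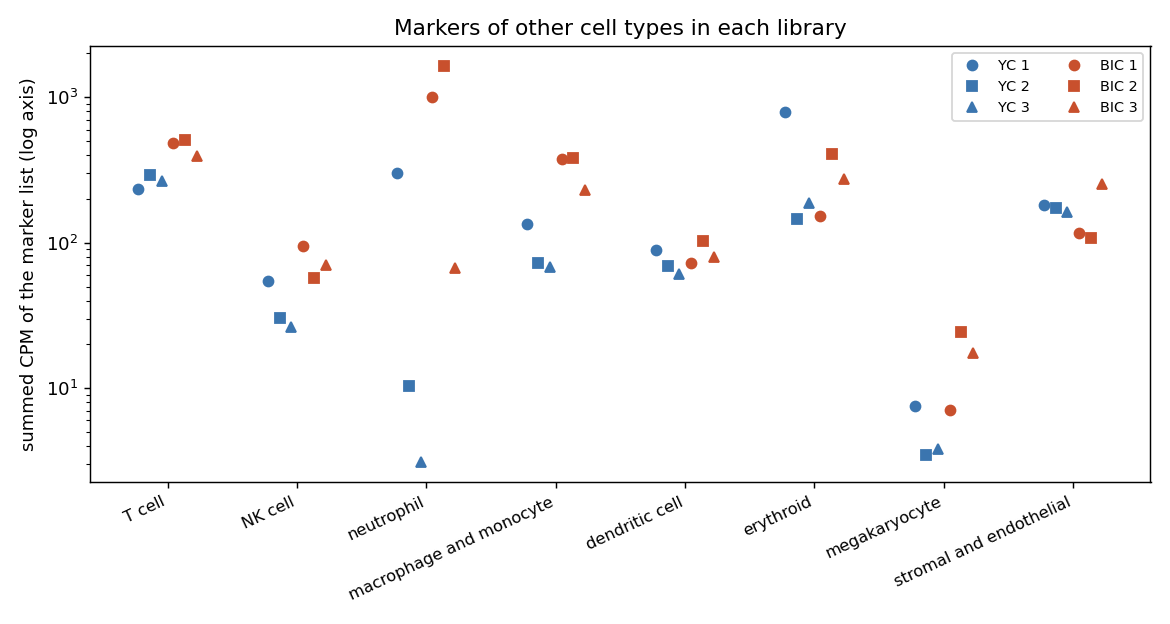
Summed CPM of the marker genes of other cell types in each library, on a log axis; YC libraries are blue and BIC libraries red. Neutrophil markers span 3.11 to 303 CPM in YC and 66.9 to 1647 CPM in BIC, and YC 1 has the highest erythroid sum.

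The 3 BIC libraries also differed from each other within the B cell genes. Against BIC 1 and BIC 2, BIC 3 was high in Cr2, Cd5, Fcer2a and the chemokine receptor gene Ccr6, and low in Prdm1, Ighg3 and the T cell receptor chain gene Cd3g. Ccr6 was at 133, 108 and 81.7 CPM in YC and 0.358, 0.797 and 7.35 CPM in BIC (log2 fold change -5.26 ± 1.16, -7.55 without BIC 3, adjusted p = 0.021). Its call ended without 3 of the libraries (adjusted p = 0.052 to 0.061 without YC 2, YC 3 or BIC 2). BIC 3 thus held IgM with the highest Cr2 and Cd5, and BIC 1 and BIC 2 mostly IgG3 with little Cr2; with 1 mouse on one side this is a description of these libraries. The features that all 3 tumours shared included the low Bcl6, S1pr2, Cdc20 and Hmgcs1, the high Fcrl5, Zbtb32, Cd9, Plac8 and S100a6, and the narrow V gene use.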

How the data were processed

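Poly(A) RNA of sorted splenic B cells was sequenced on an Illumina HiSeq platform as read pairs, per the labels' protocols; dead cells were excluded and live B220-stained cells were sorted fresh. The deposited tables hold raw counts, 1 number per gene and library, which the authors made from exons with featureCounts 1.5.0, per the file headers, with neither a paired-end nor a strand option and without multi-mapping reads. Mates were therefore counted separately, reads of overlapping genes on opposite strands are not separated, and near-identical copies are under-counted. The submitters' processing notes also name STAR, FastQC, edgeR and limma and the builds mm10 and GRCm38; their versions are not given in the sources used. The header of YC 1 names its input folder by another pattern than the rest.

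From these counts, edgeR 4.0.16 in R 4.3.3 was fitted on 3 BIC and 3 YC libraries with TMM factors, the default expression filter (minimum count 10), a robust quasi-likelihood fit and test, and Benjamini-Hochberg adjustment over 15923 genes, with a call at an adjusted p under 0.05. Every adjusted p printed is from that test unless another is named. SE is the size of the log2 fold change over the root of its F statistic and restates the test. CPM are counts per 1000000 after TMM scaling. P-values measure the spread between these mice only. Gene names are those of GENCODE M21, and gene coordinates are GRCm38, 1-based. Gene lists are described by counts of calls, with no test over a list. V gene and constant gene shares have exact binomial intervals of 95%, which take the separately counted mates as independent. Promoters are the RefSeq sequences of GRCm38.p6, available for 10560 of the tested genes by symbol. The code was tested on simulated data.

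The members and the 48 gene lists were chosen with earlier results of these data known. Genes were named by rule: Prdm1 and Ikbkb; per list up to 4 called members in each direction in order of p, and other members of lists under 45 genes; 10 higher and 10 lower protein-coding genes with moderate, well-expressed and non-overlapping changes in order of p; and the 5 highest and 5 lowest fold changes with a mean of at least 5 CPM. Some genes that met these rules are not reported here. Alternatives were RLE factors, DESeq2 1.42.0, limma-voom (limma 3.58.1), other filters on low counts, all 12 libraries in 1 fit, a block on the replicate number, and leaving out each library.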

Additional observations from a re-analysis of the deposited data

How the results depend on the processing

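The total of 4602 calls (2327 higher, 2275 lower) ranged from 2356 to 5003 when each library was left out in turn, with 1060 to 2596 higher and 1296 to 2407 lower; the low ends were without YC 2 and the high ends without BIC 3. With all 12 libraries in the fit it was 1576, 693 higher and 883 lower. DESeq2 gave 5334, limma-voom 4588, RLE factors 4621, no filter on low counts 4386, a mean of at least 5 CPM 3674, and the fit without immunoglobulin, T cell receptor, sex-chromosome and mitochondrial genes 4392. The labels do not say that replicate numbers pair mice. The deviations of same-numbered libraries from their group correlated at 0.029, -0.109 and 0.094, and YC 1 correlated best with BIC 2 (0.14). With 3 libraries per group such values cannot decide whether the numbers pair mice. With the replicate block 3264 genes were called, 1597 higher and 1667 lower. Of 205 called genes named in the text, 0 changed sign under any of these settings. The 12-library fit lost 66 of them, the fit without a filter 14, the block 7, limma-voom 4, and RLE factors and DESeq2 0; leaving out a library lost 2 (BIC 3) to 17 (YC 3). The causes of these losses were not tested. The named genes were mostly picked in order of p from the main fit, so they do not stand for all calls. Of all 4602 called genes, 2063 kept the call whichever library was left out. In the 12-library fit 1536 of them kept it. Counting V pseudogenes with the functional V genes put the top heavy-chain share at 6.59%, 8.58% and 8.17% in YC and 38.4%, 68.3% and 31.3% in BIC. Counts per exon length put Ighg3 at 79.5%, 70.4% and 9.46% of constant gene counts in BIC 1, 2 and 3. A count of 0 allows up to 3 counts, or 0.0646 CPM in YC 1 and 0.0906 CPM in YC 3. A term for Xist could not be fitted, since it separates the groups completely.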
